A study of Mus musculus with 16 samples.

Results

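The comparison described here is that of P19 cells depleted of Sfpq with P19 cells given a control, and its members are the 8 arrays labelled siSFPQ or ctrl, 4 each, of the 16 arrays in the series. P19 is a mouse embryonal carcinoma line that grows as pluripotent cells and can be turned into neurons, heart muscle or other lineages. The study asked how the RNA-binding protein Sfpq takes part in silencing by the let-7a microRNA. The siSFPQ cells received an siRNA pool against Sfpq, the ctrl cells the control reagents, and the 8 further arrays cover a let-7a mimic with (let7+siSFPQ) or without (let7) that pool. Per the methods, cells were transfected with 24 nM of each reagent and harvested 48 h later. An siRNA pool lowers a transcript in a whole culture and does not remove the gene, so all values are means over cells that took up different amounts.

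Sfpq is a nuclear protein of the DBHS family, together with Nono and Pspc1. The family members pair with each other, bind RNA and DNA, take part in transcription and splicing, and gather in paraspeckles, nuclear bodies built on the long noncoding RNA Neat1. In the nervous system Sfpq is known for sustaining the transcription of long genes and the transport of RNA into axons.

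Cy3-labelled RNA was measured on Agilent arrays of 1 colour with 59305 spots. Between 34565 and 37609 spots were well above background on the ctrl arrays, and between 33733 and 36485 on the siSFPQ arrays. Levels below are log2 of the background-subtracted intensity, quantile normalized between arrays, so that 1 unit is a 2-fold difference, and a level may be compared between samples but not between genes. Arrays 1 and 2 of each group differed by an SD of 0.103 to 0.123 over probes, against 0.172 to 0.451 for other pairs of one group and 0.0802 between spots of one probe on one array. Each such pair entered as its mean, so that a group held 3 samples, namely replicates 1 and 2 together, replicate 3 and replicate 4. Nothing in the labels says that the samples came from separate cultures, so p-values measure the spread between these samples. In bulk RNA, fewer cells of a type and less RNA per cell cannot be told apart.

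The target itself was lowered, and unevenly so. Sfpq stood at 12.06, 12.08, 11.98 and 11.99 on ctrl arrays 1 to 4, and at 10.59, 10.52, 11.47 and 10.61 on siSFPQ arrays 1 to 4. The groups did not overlap, but siSFPQ array 3 lay closer to ctrl than the other 3 did. Sfpq fell by 1.13 ± 0.19 (SE, n = 3 samples per group, limma adjusted p = 0.00833). By replicate number the change was -1.51 (replicates 1 and 2), -0.51 (3) and -1.37 (4), and it was -1.44 without replicate 3. The exact two-sided permutation test over the 3 and 3 samples gave p = 0.1, the smallest p this design allows. Of the 2 Sfpq probes, one gave a change of -1.41 and the other of -0.86. Because replicate 3 held the smallest reduction of Sfpq, its values are given beside some of the results that follow. Replicate 3 also stood apart where no siRNA against Sfpq was given. Its SD from replicate 1 was 0.309 in ctrl and 0.36 in let7, against 0.175 and 0.189 for replicate 4. Whether its smaller changes go with its smaller reduction of Sfpq was not tested.

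Among the partners of Sfpq, Pspc1 rose and Nono showed no detectable change. Pspc1 stood between 11.01 and 11.12 on the ctrl arrays and between 11.86 and 11.92 on the siSFPQ arrays. Its rise of 0.85 ± 0.08 (adjusted p = 0.00249) was as large in replicate 3 (0.91) as in replicates 1 and 2 (0.85) and 4 (0.78), unlike the fall of Sfpq. Nono lay at a mean of 15.52 in both groups, with a difference of 0.00 ± 0.07 (adjusted p = 0.976). Neat1 differed by -0.12 ± 0.24 and Malat1, a noncoding RNA of nuclear speckles, by -0.14 ± 0.41, neither past the test. Of 18 genes of the complex and of paraspeckles, Sfpq and Pspc1 were the members called.

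**Figure D1:**
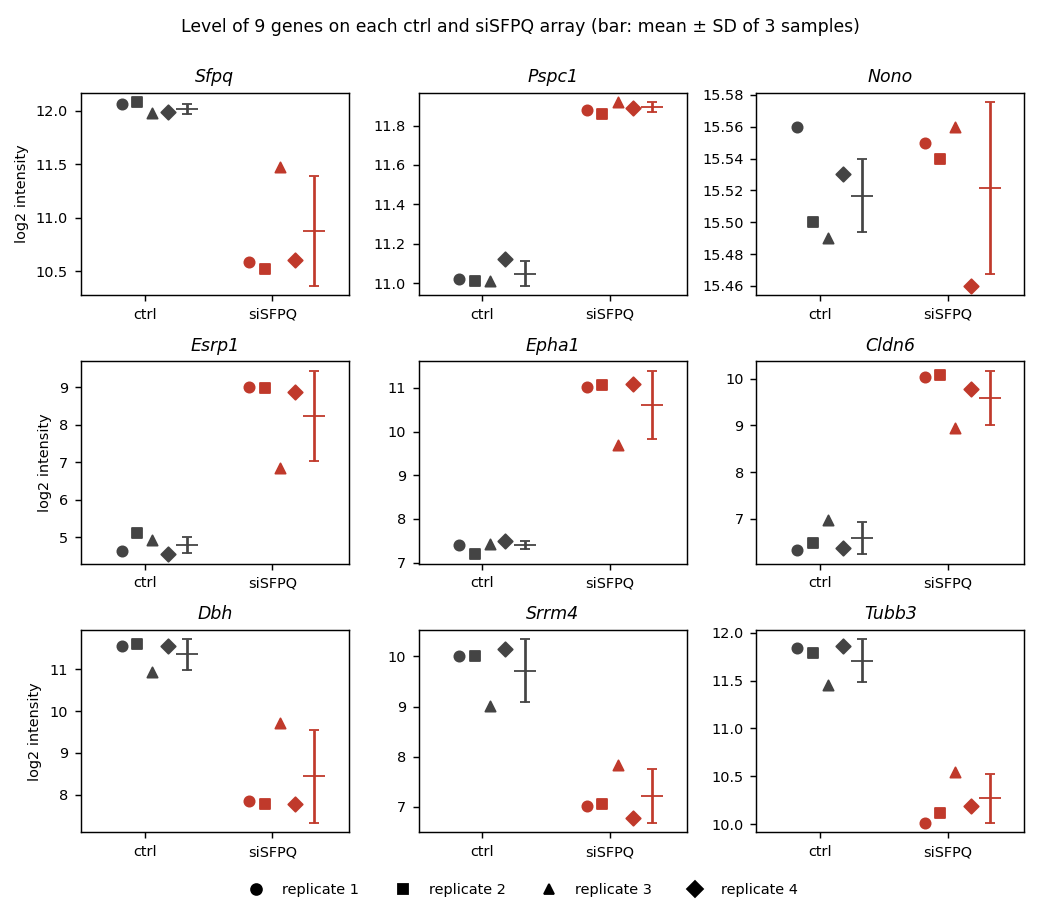
Log2 intensity (y axis) of 9 genes on the 4 ctrl and 4 siSFPQ arrays (x axis), with a marker shape for each replicate number and, beside them, the mean ± SD of the 3 samples (arrays 1 and 2 averaged). For Sfpq, Esrp1, Epha1, Cldn6, Dbh, Srrm4 and Tubb3 the siSFPQ array of replicate 3 (triangle) lies nearest to ctrl, whereas Pspc1 is raised alike on all 4 siSFPQ arrays.

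Sfpq depletion changed the levels of genes in both directions. Of 19567 genes tested, 1121 rose (5.73%) and 1321 fell (6.75%) at an adjusted p under 0.05. Of these, 362 rose and 536 fell by more than 2-fold, and 60 rose and 66 fell by more than 4-fold. The median change over all genes was 0.01. The 3 siSFPQ samples lay above all ctrl samples for 2955 genes (15.1%) and below them for 2694 (13.8%).

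The calls depended on which samples entered the fit. Same-numbered ctrl and siSFPQ samples deviated together from their group means (correlations of 0.319 to 0.547), and with the replicate number as a block 3476 genes rose (17.8%) and 3723 fell (19%), among them all 2442 genes called without it. Counts over gene lists are given below without the block, and most are higher with it. Without replicate 3, 4440 genes rose (22.7%) and 4769 fell (24.4%). Without replicate 4, and without replicates 1 and 2, 0 genes were called by limma, with 1720 and 1897 genes at an unadjusted p under 0.05. The fit of ctrl and siSFPQ alone also called 0, with 4867 genes at an unadjusted p under 0.05 against 5853 in the fit of all 4 groups, whose spread it lacked.

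Genes known from epithelial cells were among the largest rises of genes measured on all 8 arrays. Esrp1, a splicing regulator specific to epithelia, stood at 4.63, 5.12, 4.94 and 4.55 on ctrl arrays 1 to 4 and at 9.004, 8.98, 6.84 and 8.86 on siSFPQ arrays 1 to 4. All siSFPQ arrays lay above all ctrl arrays, and the rise was 3.44 ± 0.51 (adjusted p = 0.00606). Epha1, an ephrin receptor, went from between 7.18 and 7.49 on ctrl arrays to 11.03, 11.07, 9.70 and 11.08, a rise of 3.21 ± 0.37. Cldn6, a claudin of tight junctions, rose by 3.01 ± 0.37, and Grhl2, a transcription factor of epithelial genes, by 2.90 ± 0.71. The further large rises were Pla1a, a phospholipase (3.34), Dppa3, a maternal and germ cell factor (2.99), Nt5e, an ectonucleotidase (2.98), Phlda2, an imprinted growth regulator (2.85), Crb3, a polarity protein of the apical membrane (2.74), Dusp4, a phosphatase of MAP kinases (2.52), Cldn7 (2.49) and Bspry (2.40). In replicate 3 these 12 genes rose less than in the other replicates, with the smallest step in Dusp4 (0.71) and the largest in Epha1 (2.28).

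Some genes were measurable only after depletion. Of the called genes, 24 were well above background on all siSFPQ arrays and on no ctrl array. Their rise is then a lower bound, set against the lowest signal well above background. For genes above background on only some arrays of a group, that number is given with the fitted change, whose size then rests in part on values near background. Dmrtc1b was at least 7.40-fold higher, Mas1, a receptor for angiotensin peptides, at least 7.05-fold, Aadac, a deacetylase of liver and gut, at least 5.34-fold, Klhl14 at least 4.35-fold, and Cfc1, a cofactor of Nodal, at least 4.13-fold. In the other direction 27 genes were well above background on all ctrl arrays and on no siSFPQ array, and the bound came to under 1 for 1 of them. St18, a neuronal zinc finger factor, was at least 3.80-fold lower, Ms4a4b at least 3.05-fold, Hmx3, a homeobox factor, at least 2.69-fold, and the desmosomal cadherin Dsg1c at least 2.09-fold.

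Genes of epithelial junctions and polarity rose in larger number than they fell. Of 52 tested, 18 rose (34.6%) and 2 fell, with a median change of 0.44 (0.30 in replicate 3). This list also holds Esrp1 and Epha1, described above, and was written with earlier results of these data known. Lad1, an anchoring filament protein, rose by 3.40 and was above background on 3 of 4 ctrl arrays. Cdh1, the E-cadherin gene, named after its values were seen, rose from a mean of 10.47 to 11.57. The members that fell were Cldn2 (-2.08) and Cldn5 (-1.63, above background on 1 of 4 siSFPQ arrays), named after their values were seen. Of 21 mesenchymal genes, 2 rose and 4 fell, with a rise of Snai1 (1.16), a repressor of Cdh1, and of Foxc1 (1.21), and a fall of Twist2 (-1.13, above background on 3 of 4 siSFPQ arrays) and Zeb2 (-0.85, with -1.39 to -0.19 over its 3 probes).

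The P19 markers followed here, Pou5f1, Lin28a and Sox2, stayed measurable in both groups, though Sox2 fell. Dnmt3b, Utf1 and Tdgf1, also chosen as P19 markers, are not described here. Pou5f1 lay at a mean of 14.62 in ctrl and 14.69 in siSFPQ, and Lin28a at 14.39 and 14.46, neither past the test, whereas Sox2, which also marks neural progenitors and was named as the one list member that fell, fell by 0.72 ± 0.18 (adjusted p = 0.0297). Around this core, genes of naive pluripotency rose. Of 24 core and naive genes, 9 rose and Sox2 alone fell, with a median of 0.67. Dppa3 stood at 3.86, 6.22, 4.77 and 5.41 on the ctrl arrays and at 9.09, 9.18, 5.85 and 9.21 on the siSFPQ arrays, where array 3 lay below the ctrl array of replicate 2. Tfcp2l1, a factor of the naive state, rose by 2.04, Dnmt3l, a cofactor of DNA methylation, by 1.91 (0.62 in replicate 3) and Dppa4 by 1.83 (0.57). Of 19 genes of the primed epiblast, 3 rose (Grhl2, Etv4 by 2.19 and Fgf8 by 1.28) and 3 fell, among them Pou3f1 (-1.27), which accompanies the start of neural fate.

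Genes of the primitive streak and mesendoderm rose, and in several of them replicate 3 was as high as the others. Of 18 such genes 6 rose and 0 fell, at a median of 0.43 over all samples and 0.68 in replicate 3. Wnt3, a ligand that starts the streak, stood between 7.12 and 7.38 on the ctrl arrays and at 9.10, 9.04, 9.70 and 8.91 on siSFPQ arrays 1 to 4. Sp5, a target of Wnt signals, stood at 9.46, 9.44, 8.56 and 9.46 on ctrl and between 11.17 and 11.36 on the siSFPQ arrays. The lowest ctrl value of Sp5 was that of replicate 3, so that its change was largest there (2.61, against 1.88 and 1.84). T, the streak factor brachyury, named after its values were seen, rose by 1.91 (1.52 in replicate 3), Cdx1, likewise, by 1.53 (1.75), and Evx1, above background on 1 of 4 ctrl arrays, by a fitted 2.88. Cdx2, a factor of the trophectoderm and posterior body, was on no ctrl array above background and at least 3.81-fold higher.

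Among Wnt genes at large the change was mixed, with 7 of 44 rising and 6 falling. Dkk4, a secreted inhibitor that is itself a Wnt target, was above background on 3 of 4 ctrl arrays and rose by a fitted 2.17. Wnt11 rose by 1.57 (0.24 in replicate 3), and the receptor Fzd2 fell by 1.16. Of 28 genes of ERK feedback and immediate early response, 6 rose and 1 fell. Dusp4 stood between 9.91 and 10.12 on ctrl arrays and at 13.46, 13.45, 10.66 and 13.41 on siSFPQ arrays 1 to 4. Spry4, an inhibitor of growth factor signals, rose by 1.84, Dusp2 by 1.54 and the stress factor Atf3 by 1.54 (0.28 in replicate 3).

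The falls were led by neuronal genes. Dbh, the enzyme that makes noradrenaline from dopamine, stood at 11.55, 11.60, 10.94 and 11.56 on the ctrl arrays and at 7.84, 7.79, 9.73 and 7.76 on the siSFPQ arrays. It was the largest fall among genes measured on all 8 arrays, by 2.92 ± 0.44 (adjusted p = 0.00610). Srrm4, a splicing factor of neuronal microexons, fell from between 9.002 and 10.15 to 7.02, 7.05, 7.83 and 6.78, by 2.50 ± 0.40. The further large falls were Clvs1 (-2.48), Pdzph1 (-2.30), the homeobox factor Onecut1 (-2.28), Crabp1, which binds retinoic acid in the cytoplasm (-2.27), the forebrain factor Fezf1 (-2.27), the neuropeptide gene Cartpt (-2.22), Mdga1 (-2.20), Palmd (-2.14) and Fam163a (-2.12). In replicate 3 the changes of these 11 genes lay between -1.39 (Crabp1) and -0.82 (Mdga1).

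Over the lists of neuronal and neural genes together, 475 genes were tested, of which 144 fell (30.3%) and 8 rose (1.68%), at a median of -0.43 (-0.19 in replicate 3). Transcription factors that drive neurogenesis had the lowest median of the lists over all samples, though not in replicate 3 (-0.34) and not by the share that fell (42.9%, against 48% in neuronal adhesion). Of 28 proneural and neuronal factors 12 fell and 1, Isl2 (0.56), rose, with a median of -0.96. Nhlh2 stood between 6.59 and 7.14 on the ctrl arrays and at 1.75, 2.65, 5.10 and 1.75 on the siSFPQ arrays, only 1 of which was above background. Ebf2 fell by 3.11 and was above background on 2 of 4 siSFPQ arrays. Neurod4 was above background on no siSFPQ array and at least 1.68-fold lower.

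Of 18 noradrenergic genes, Dbh among them, 5 fell and 0 rose (8 fell and 2 rose with the replicate block). Tfap2b, a factor of sympathetic neurons, fell by 1.85 (-0.60 in replicate 3), and Isl1, above background on 1 of 4 siSFPQ arrays, by 1.94. Of 25 genes in a list of neuronal splicing regulators and Rest 7 fell and 1, Mbnl3 (0.68), rose. The falls included Srrm4, Khdrbs2 (-1.45, above background on 3 of 4 siSFPQ arrays), Celf6 (-1.34) and Celf5 (-1.26). Rest, the repressor of neuronal genes in other cells, differed by 0.25 ± 0.17 (adjusted p = 0.359).

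Genes for the structure and secretion of neurons fell as well. Of 29 cytoskeletal genes 12 fell and 1, Dpysl5 (0.39), rose, with a median of -0.61. Tubb3, the neuronal beta tubulin, stood between 11.45 and 11.86 on the ctrl arrays and between 10.01 and 10.55 on the siSFPQ arrays, and fell by 1.44 ± 0.21. Gprin1, a growth cone protein (-1.69), Stmn4, a regulator of microtubules (-1.34), and Map2, of dendrites (-1.25), fell too. Of 32 genes of secretory granules and synaptic vesicles 14 fell and 1, Syt5 (0.93), rose. Their falls were led by Cadps, which primes dense core vesicles (-1.93), Pcsk1n (-1.90), the prohormone convertase Pcsk2 (-1.83, -0.56 in replicate 3) and its chaperone Scg5 (-1.32, -0.44).

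Surface proteins of neurons were among the falls. Of 25 adhesion genes 12 fell and 0 rose, with Cntn2 (-2.06, above background on 2 of 4 siSFPQ arrays), Cdh13 (-1.93), Cadm3 (-1.89, on 1 of 4) and Cntn3 (-1.62) ahead. Of 35 protocadherins 14 fell and 0 rose, at a median of -0.68. Pcdhb3 fell by 2.50 and Pcdhb17 by 2.17, above background on 1 and 3 of 4 siSFPQ arrays. The protocadherins of a cluster resemble each other in sequence, so that a probe may also catch a neighbour's transcript.

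Of 65 axon guidance genes 20 fell and 1, Epha1, rose. Robo3, a receptor for midline crossing, fell by 2.45, the semaphorin receptor Plxna4 by 1.75 and the ligand Slit3 by 1.70, with Robo3 above background on 2 and Slit3 on 3 of 4 siSFPQ arrays. Of 61 potassium channel genes 10 fell and 1, Kcnk6 (2.31, above background on 3 of 4 ctrl arrays), rose, with Kcnc2 (-2.26, above background on 1 of 4 siSFPQ arrays), Kcnip1 (-1.76) and Kcnj12 (-1.59) among the falls. With the replicate block 24 potassium channel genes fell and 8 rose. Of 28 sodium and calcium channel genes 7 fell and 1 rose, with Cacna2d3, above background on 2 of 4 siSFPQ arrays, at -1.67 and Cacna1g at -1.08 (-0.36 in replicate 3). Scn8a, called at -0.95, had probes between -2.09 and 0.03 and is uncertain. Of 44 transmitter receptors 5 fell and 1, the glutamate receptor Grm6 (1.96), rose, with falls of Grin3b (-1.31, above background on 1 of 4 siSFPQ arrays) and the nicotinic subunit Chrnb4 (-1.11). In replicate 3 Grin3b differed by -0.10 and Chrnb4 by -0.40. With the replicate block 15 transmitter receptors fell and 5 rose.

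Most called patterning genes of the early neural tube shared this direction. Of 28 neural progenitor genes 13 fell and 0 rose, with a median of -0.72. Lhx5, a factor of the forebrain, stood between 6.99 and 7.69 on the ctrl arrays and at 3.56, 3.66, 5.50 and 2.67 on the siSFPQ arrays, of which 1 was above background. Zic4 and Irx3 fell by 1.19 each (Zic4 by 0.27 in replicate 3), and Pou3f3, above background on no siSFPQ array, was at least 2.04-fold lower. Of 26 Notch genes 7 fell and 0 rose, with the glycosyltransferase Mfng (-1.60), the ligand Dll3 (-1.37) and the receptor Notch3 (-1.26, -0.43 in replicate 3) among them. With the replicate block 9 Notch genes fell and 5 rose, beside 19% and 17.8% of all genes. Of 20 Hedgehog and ventral genes 3 fell, namely Dbx1 (-2.03), Foxj1 (-1.36, -0.41 in replicate 3) and Gli2 (-0.85). In the retinoic acid pathway 5 of 20 genes fell and 3 rose, with a fall of the receptor Rarb (-1.23) and of Crabp1, and a rise of Aldh1a2, which makes the ligand (1.51), and of Cyp26a1, which degrades it (1.14, 0.12 in replicate 3).

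**Figure D2:**
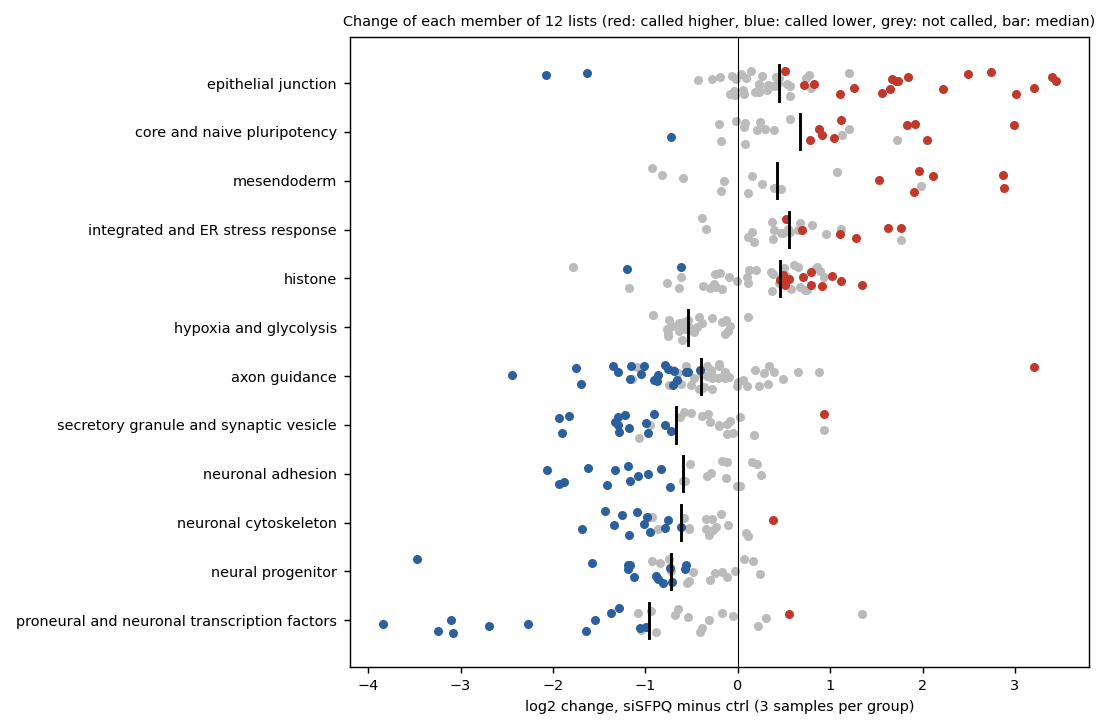
Log2 change, siSFPQ minus ctrl (x axis, 3 samples per group), of each tested member of 12 gene lists (y axis), with called genes in red (higher) or blue (lower), others in grey and the list median as a bar. Epithelial and pluripotency genes spread to the right, proneural factors reach furthest to the left, and the hypoxia and glycolysis genes shift left with 0 members called.

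Genes of stress responses rose, and by less in replicate 3. Of 24 genes of the integrated and ER stress response 6 rose and 0 fell, with a median of 0.56 (0.25 in replicate 3). Trib3, a pseudokinase induced by amino acid shortage, stood between 11.57 and 11.95 on the ctrl arrays and at 13.77, 13.76, 12.59 and 13.73 on the siSFPQ arrays, and rose by 1.63. Chac1, which degrades glutathione, rose by 1.27 (0.29 in replicate 3) and Cebpb by 1.11. For Chac1 the ctrl array of replicate 3 was the highest, at 11.95 against 10.87 to 10.95 on the others. Fgf21, a stress hormone, was above background on no ctrl array and at least 2.14-fold higher.

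The factor Atf4 acts in this response through a composite element, and the letters TGATGCAAT, one form of it, were searched on both strands of the RefSeq promoters (250 bases before to 50 after the start, GRCm38.p6). They were found for 22 of 12459 genes with a promoter (0.177%), 3 of 818 genes that rose (0.367%), 0 of 911 that fell and 2 of the 24 stress genes (8.33%). Those of the stress genes are shown because this list rose, with the element, which runs on the strand opposite to the gene, in capitals. Nupr1, not called (1.76 ± 0.70, adjusted p = 0.114), was named for this match.
Fgf21, chr7:45615611-45615640, minus strand: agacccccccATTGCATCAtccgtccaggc
Nupr1, chr7:126625562-126625591, minus strand: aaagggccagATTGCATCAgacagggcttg
The element began 140 bases upstream of the start in Fgf21 and 111 in Nupr1, counted on the strand of the gene. These matches are letters in a window and not measured binding.

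Of 22 interferon-stimulated genes and RNA sensors 7 rose and 1 fell. Gbp2, a guanylate-binding protein, was above background on 1 of 4 ctrl arrays, so that its fitted rise of 3.25 rests on values near background. Oasl2 rose by 1.72 and Mx2 by 1.52, both above background on 3 of 4 ctrl arrays. Of 27 p53 targets 6 rose and 1 fell, with the death receptor Fas (1.66, above background on 2 of 4 ctrl arrays), Plk2 (1.55, 0.51 in replicate 3), Gdf15 (1.19, 0.21) and the cell cycle inhibitor Cdkn1a (1.13) ahead. Of 50 histone genes 12 rose and 2 fell, at a median of 0.46 over all samples and 0.07 in replicate 3. H2ac4 stood between 14.10 and 14.55 on the ctrl arrays and at 15.99, 15.94, 14.52 and 15.80 on the siSFPQ arrays, whereas the linker histone H1f2 fell by 1.20. Histone genes are near-identical copies, so that single members are uncertain. Of 37 genes of replication and mitosis 3 rose (8.11%, near the 5.73% of all genes) and 0 fell. With the replicate block 17 rose and 1 fell, beside 17.8% and 19% of all genes.

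Genes of hypoxia and glycolysis had a median of -0.53, yet 0 of 27 were called. With the replicate block 14 of them fell and 0 rose, and without replicate 3, 20 fell and 1 rose, while their median in replicate 3 was -0.01. Of 78 ribosomal protein genes 0 were called (2 rose and 1 fell with the block), at a median of 0.02, and of 92 genes of oxidative phosphorylation 1 rose and 2 fell (7 and 13 with the block). Of 15 Hox genes 0 were called (3 rose with the block), and of 25 genes of cholesterol and fatty acid synthesis 1 fell (4 rose and 2 fell with the block). Of 69 collagen, laminin and integrin genes 10 fell and 1 rose, and of 28 imprinted genes 5 fell and 2 rose, with falls of Nnat (-1.53), Meg3 (-1.29) and Magel2 (-1.26).

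Of 69 hnRNP, SR and Rbm genes 3 rose (4.35%) and 5 fell (7.25%), near the 5.73% and 6.75% of all genes. Among them were Rbm47, an epithelial RNA-binding protein above background on 1 of 4 ctrl arrays, at 2.56 and Rbmx at -0.92. With the replicate block 11 rose and 13 fell, beside 17.8% and 19% of all genes. Of 32 genes of miRNA processing and silencing 3 rose (9.38%), led by the helicase Mov10 (0.90), and 4 fell (12.5%), and with the block 7 rose and 10 fell. Of 21 let-7 target genes 1 rose (4.76%), Hmga2 (1.02), and 2 fell (9.52%), Mycn (-1.65) and Igf1r (-0.90, -0.15 in replicate 3), at a median of -0.04. With the block 4 rose and 5 fell. Beside the 5.73% and 6.75% of all genes, these few calls are not read as a result about the lists.

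Lists of other cell types were tested as well. Of 14 genes of extraembryonic endoderm 3 rose and 1 fell, with Amn at 1.94 and Apob, above background on no ctrl array, at least 3.73-fold higher. Of 9 trophoblast genes 2 rose, Tead4 among them (1.82), and of 10 blood and immune genes 0 were called. Of 13 muscle genes 1 fell, and of 11 glial genes 3 fell. The part of such cells in the changes above was not tested.

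**Figure D3:**
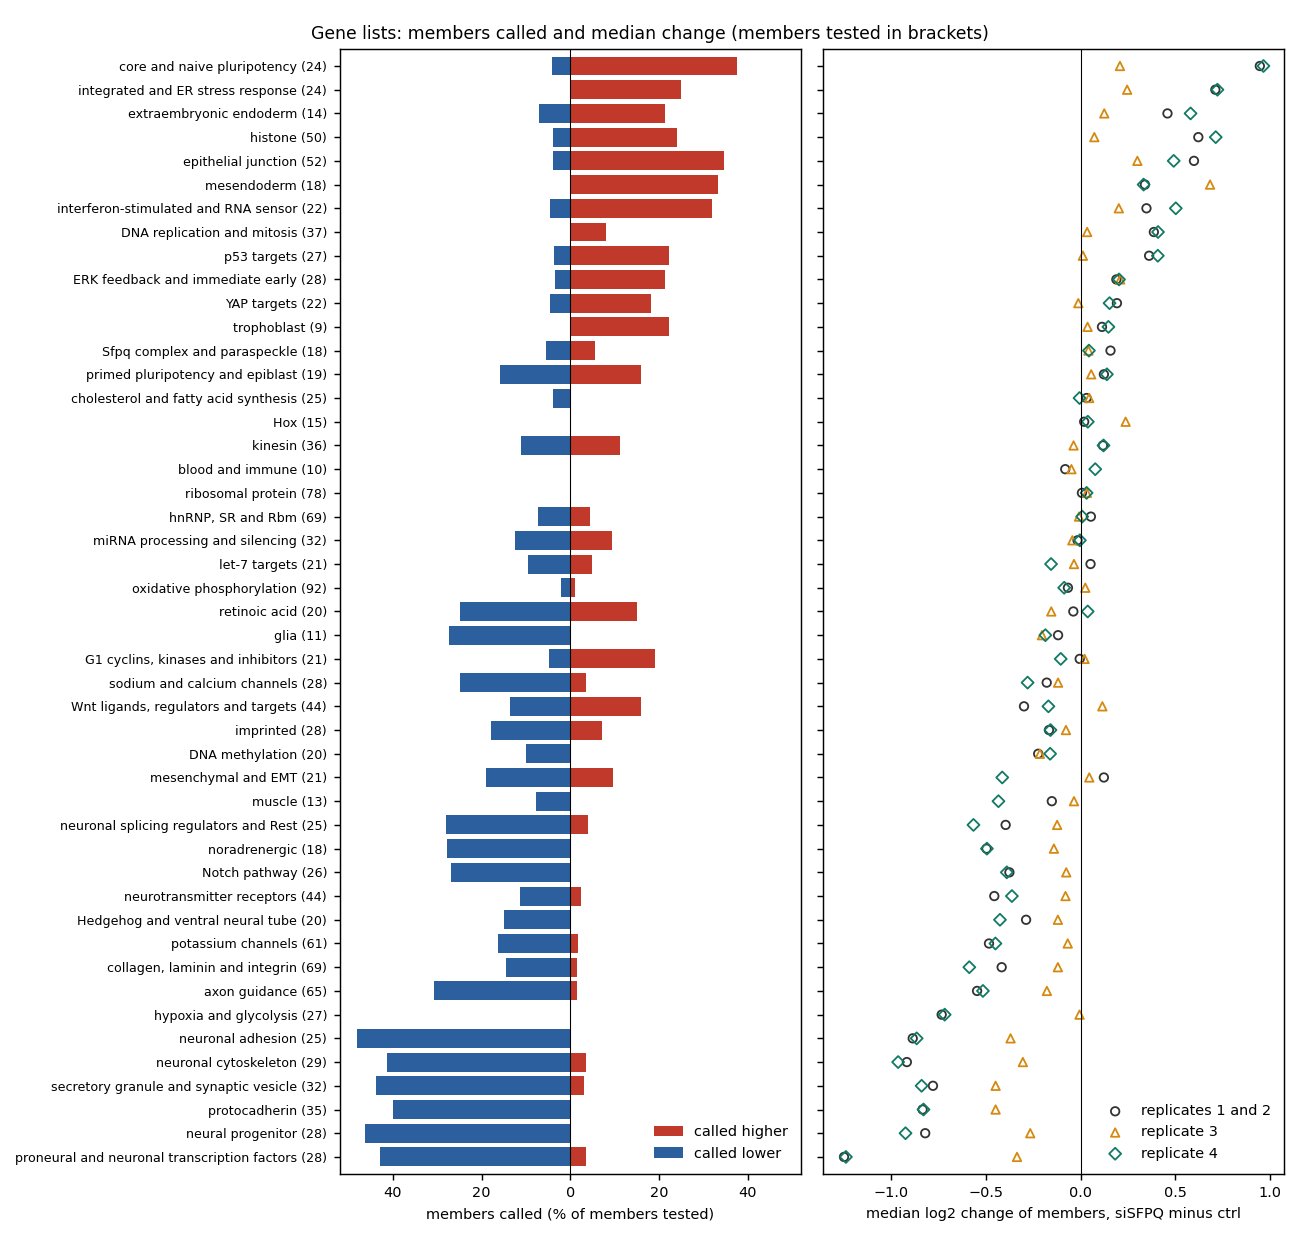
Share of tested members called higher (red) or lower (blue) in each of 47 gene lists (left, percent of members) and the median log2 change of the members in each of the 3 samples (right), siSFPQ against ctrl. In most lists replicate 3 (triangles) lies nearer to 0 than the others, and the mesendoderm list is an exception with its highest median there.

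The share of genes that fell was highest among long genes, given here as a description with no test. A genomic span was found in the RefSeq table for 15864 genes (81.1%). Of 434 genes over 300 kb, 128 fell (29.5%) and 10 rose (2.30%), with a median change of -0.40. The median was negative in each sample, at -0.45 (replicates 1 and 2), -0.24 (3) and -0.51 (4), and it was -0.34 for let7+siSFPQ against let7. Of 1561 genes of 100 to 300 kb, 13.2% fell and 5.70% rose. In the bins of 30 to 100, 10 to 30 and under 10 kb, 6.39%, 5.70% and 6.66% fell, and the medians lay between -0.01 and 0.05. Without the genes of the neuronal lists, 101 of 368 genes over 300 kb fell (27.4%).

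The long genes that fell furthest were, besides St18 and Clvs1, Dach1 (383 kb on chromosome 14, GRCm38.p6), a factor of neural progenitors and limbs, and Naaladl2 (1346 kb on chromosome 3, -2.77, above background on 1 of 4 siSFPQ arrays). Dach1 stood between 5.81 and 6.24 on the ctrl arrays and at 3.17, 2.72, 4.45 and 2.37 on the siSFPQ arrays, 2 of which were above background. Csmd1, of 1643 kb and above background on no siSFPQ array, was at least 1.75-fold lower. Esr1, the estrogen receptor gene of 394 kb, went the other way and was at least 2.02-fold higher. Dach1, Naaladl2, Csmd1 and Esr1 were named after their values were seen.

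**Figure D4:**
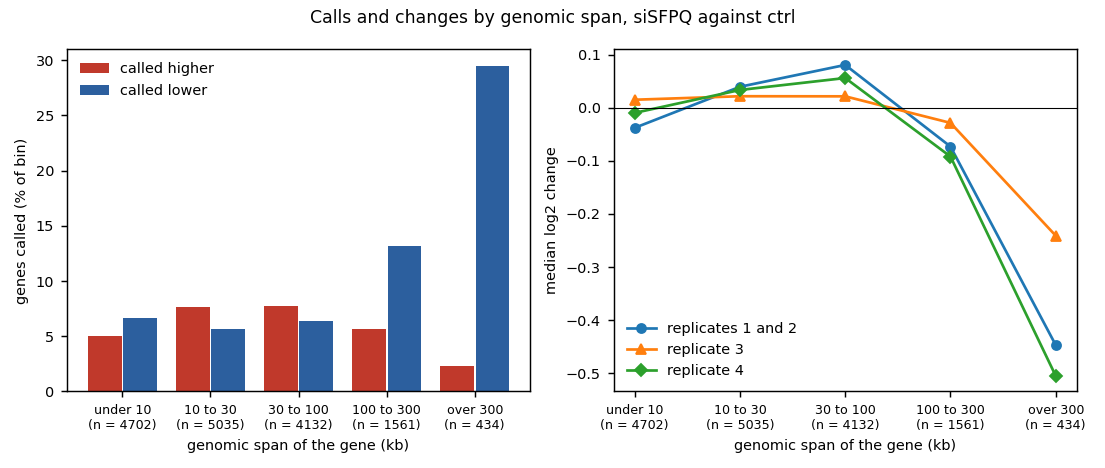
Share of genes called higher or lower (left, percent of the bin) and median log2 change in each sample (right) by genomic span of the gene in kb, siSFPQ against ctrl. The share called lower is 29.5% over 300 kb and between 5.70% and 6.66% under 100 kb, and the median over 300 kb is below 0 in all 3 samples.

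The size of the response in replicate 3 differed between genes. Its change was in the median 0.411 of the mean of the other samples for the genes that rose and 0.386 for those that fell, and it had the same sign in 1116 of 1121 and 1312 of 1321 genes. Replicate 3 is part of the fit that called these genes, so that its sign is a description. Among the called genes, 64 that rose and 44 that fell changed in replicate 3 by at least as much as in the others, with Wnt3 (2.58 against 1.76 and 1.56), Sp5 and Cdx1 among them. At the other end, Mat2a, which makes S-adenosylmethionine, changed by -1.81 (replicates 1 and 2), -1.78 (4) and -0.02 (3), and Acot1 by -1.64, -1.68 and -0.01. Dnd1, a germ cell RNA-binding protein, changed by 2.39, 2.33 and 0.22, and Tmem30b, a flippase subunit, by 2.86, 2.97 and 0.09. Mat2a, Acot1, Dnd1 and Tmem30b were named after their values were seen.

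The siRNA pool was also given together with the let-7a mimic, where Sfpq differed by -0.57 between let7+siSFPQ and let7 and was not called (adjusted p = 0.156). With limma, 161 genes rose (0.823%) and 391 fell (2%), and with the replicate block 1089 and 1317. Of the 1121 genes that rose with siSFPQ alone 1063 were higher, 119 of them called, and of the 1321 that fell 1241 were lower, 260 of them called. Over all 19567 genes, 10764 were higher and 8803 lower. The median change of the 1121 genes was 0.36 against 0.77 without the mimic, and that of the 1321 genes -0.45 against -0.90. Both sets were chosen by their call without the mimic, which favours larger changes there.

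The difference between these 2 effects was tested as an interaction, and 0 genes were called by limma (1173 at an unadjusted p under 0.05). With the replicate block 4 genes were called (0.0204%), namely Rnf182, Ptchd1, Ecel1 and Pdlim3, named for this. Rnf182, a ubiquitin ligase, rose by 1.64 with siSFPQ alone and changed by -0.80 with the mimic. Ptchd1 stood between 5.25 and 5.81 on the ctrl arrays and at 7.67, 7.71, 6.25 and 7.20 on the siSFPQ arrays, and changed by 1.58 alone and -1.23 with the mimic. Examples of genes named above that were called in both comparisons are Crabp1 (-2.15 with the mimic), Tubb3 (-1.65), Dbx1 (-2.32), Epha1 (2.40), Cldn6 (2.37) and Pspc1 (0.51).

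**Figure D5:**
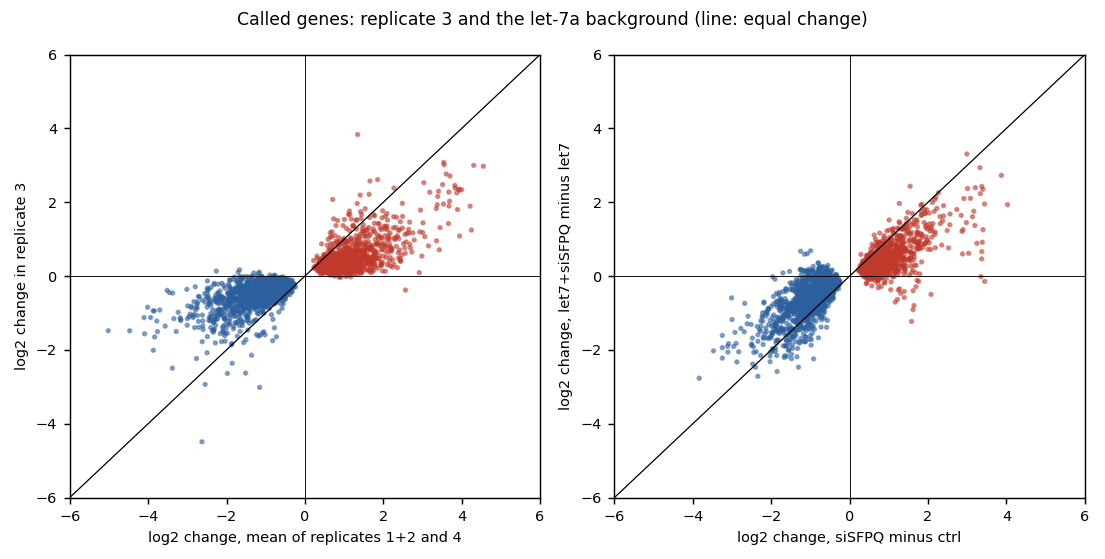
Called genes of siSFPQ against ctrl (red: higher, blue: lower), with the log2 change in replicate 3 against the mean of the other 2 samples (left) and the change of let7+siSFPQ against let7 over that of siSFPQ against ctrl (right), and lines of equal change. Most points lie between the line and 0 on both panels, and a few points of the left panel, such as Wnt3 and Sp5, lie beyond the line.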

How the data were processed

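Total RNA of 16 P19 samples was measured on Agilent arrays of 1 colour. The authors deposited the scanner intensity of each spot, extracted with Feature Extraction 10.7.3.1 per the file headers, as background-subtracted processed values and as mean, median and background values, none of them normalized between arrays. A series table of log2 values that the authors deposited, normalized by quantiles in limma per the methods, tracks log2 of the median spot intensity and served as an alternative.

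The processed intensities were taken to log2 and normalized by quantiles over the 16 arrays (R 4.3.3, limma 3.58.1). Outlier spots were left out, and probes were kept if every array of some group showed them well above background. Dropped were 42 probes that lacked a value on some array. Probes were named through RefSeq accessions or the file's symbol, region-named probes were left out, and the 25857 probes kept were averaged by gene. For 43 of the 642 called genes with over 1 probe, the probes differed in sign. The methods name 3 replicates, whereas 4 arrays per group were deposited. The number of arrays limits the precision (median SE 0.188).

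A single limma model with moderated variances (eBayes), an intensity trend and no block covered the 4 groups, and a gene was called where its two-sided p, adjusted after Benjamini and Hochberg, was under 0.05. Same-numbered samples deviated together in every pair of groups (correlations of 0.293 to 0.713), so the numbers were taken to pair the samples, and a replicate block was run beside the fit. Slide 1 held replicates 1 and 2 and slide 2 replicates 3 and 4 of every group. On simulated data of this design with 19567 genes, calls covered 124 of 200 genes given a change of 1 log2 unit and 10 unchanged ones.

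The comparison, its 47 gene lists and the rules below were chosen with earlier results of these data known. The histone list was corrected after it was seen to hold MHC genes. Genes named are Sfpq and its partners, the 12 largest rises and falls among called genes above background on all 8 arrays without overlap, the 5 largest bounds in each direction, and in each list up to 4 called members of largest change and up to 2 uncalled of highest level. Of the genes this rule selects, 1 is not reported here. Other genes carry a remark that they were chosen later, except the lone members of a list called against its direction (Sox2, Isl2, Mbnl3, Dpysl5, Syt5), which were also named after their values were seen. Alternatives varied scaling, background correction, filter, probes, block, trend and samples. Software further included the R package for tables (version 1.17.8 of data.table), pandas 2.3.3 and numpy 2.4.6 under Python 3.11.15, and matplotlib 3.10.9 for plots.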

Additional observations from a re-analysis of the deposited data

Results flagged for a closer look

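Among 197 named genes checked, the siSFPQ effect of 6 ran in opposite directions without and with the let-7a mimic in all 3 samples of each. Of these, 4 had been named because their difference was called in the replicate-block fit. The difference was -2.81 for Ptchd1 (adjusted p = 0.297 without the block and 0.0190 with it), -2.44 for Rnf182 (0.191 and 0.0190), -1.70 for Ecel1 (0.818 and 0.0228) and -1.38 for Pdlim3 (0.794 and 0.0234). Cdkn1b, an inhibitor of cyclin-dependent kinases, rose by 0.47 without the mimic and changed by -0.10 with it, a difference of -0.58 (adjusted p = 0.794, 0.135 with the block). Dcp2, a decapping enzyme, rose by 0.73 and changed by -0.11, a difference of -0.84 (0.796 and 0.171).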

How the results depend on the processing

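The counts of 1121 genes higher and 1321 lower moved by over 1.5 times under some alternatives. They were 3476 and 3723 with the replicate block, 604 and 705 with no filter on dim probes (29940 genes tested), 3308 and 3459 with arrays 1 and 2 as separate samples, 3001 and 3537 without siSFPQ replicate 3, and 362 and 536 at an absolute log2 change of at least 1. They were 0 and 0 in the fit of ctrl and siSFPQ alone, which has fewer samples. Leaving out replicates, counts ranged from 0 (without replicate 4, or without replicates 1 and 2) to 4440 and 4769 (without replicate 3). With the let-7a mimic, the 161 and 391 genes became 1089 and 1317 with the replicate block and ranged from 0 to 2481 and from 0 to 2383 with replicates left out. The block removed no call among the 2442 genes. Scaling to the 75th percentile, which gave 1440 higher and 1281 lower, turned the balance of calls. The Sfpq change was -1.13 with an adjusted p of 0.0701 in the fit of 2 groups, and ranged from -1.44 (without replicate 3) to -0.94 (without replicates 1 and 2, adjusted p = 0.448), with -1.01 and 0.504 without replicate 4. Nono, at 0.00, took values of -4.305e-05 with normexp, -0.014 without siSFPQ replicate 3, and between -0.028 and 0.043 with replicates left out (-0.0034 without replicate 2, -0.00049 without replicates 1 and 2). Malat1 was at 0.028 without siSFPQ replicate 3, with -0.19 the lowest value when a replicate was left out, and Scn8a at 0.032 with its brightest probe. No other gene named here reversed its direction. Of 161 called genes followed singly, 65 lost their call with no filter on dim probes, 20 with normexp and 12 with the 75th percentile, and all 161 in the fits that called no gene. Of 47 list medians, 9 moved by more than their spread between samples with the 75th percentile, 9 without siSFPQ replicate 3 and 7 without replicate 3. The cause of these differences was not tested.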
